A study of Homo sapiens with 4 samples.

Results

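Genes of iron uptake, export and oxidation were followed across 4 sorted fractions of Huh7, an established human hepatocellular carcinoma line. The genes were taken by symbol from a list of HEPH, CP, TFRC, TFR2, HAMP, HFE, SLC40A1, SLC11A2, CYBRD1 and FTL, and all 10 were found among the 18377 measured genes, each with 1 probe. Huh7 cells had been parted by flow cytometry into CD133-positive and CD133-negative cells in one sort, and into ALDH-positive and ALDH-negative cells in another. CD133 is the product of PROM1, and ALDH stands for aldehyde dehydrogenase. The series frames the marker-positive cells as cancer stem cells, and the labels name no treatment or gene change in any fraction. All 4 fractions come from 1 cell line, and whether they came from separate cultures is not stated.

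Each fraction was measured on 1 Affymetrix array and deposited as log2 expression from RMA (robust multi-array averaging). With 1 array per fraction no difference below has a replicate check, a standard deviation or a p-value. Differences are log2 values of the positive minus the negative fraction of a sort, so 1 unit is 2-fold. A log2 value of 4.98, the median of all values, served as the floor below which a level was taken as too dim to measure well. Levels of different genes come from different probes and are not compared.

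Hepatocytes take up iron bound to transferrin through transferrin receptor 1 (TFRC), while the enterocyte takes it from food after the reductase CYBRD1 has turned ferric into ferrous iron for the carrier SLC11A2. Iron leaves a cell through ferroportin (SLC40A1), and a copper-containing ferroxidase, hephaestin (HEPH) on the enterocyte or plasma ceruloplasmin (CP), oxidises it so that transferrin can bind it. The liver peptide hepcidin (HAMP) closes ferroportin, its gene is driven by BMP signalling with the help of HFE and transferrin receptor 2 (TFR2), and ferritin, with its light chain FTL, stores what remains.

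All 7 of 7 measured hepatocyte markers, ALB and AFP among them, were above the floor on all 4 arrays. So were 8 of 10 enterocyte markers, so this count does not tell liver from intestinal character. PROM1 was 12.8-fold higher in CD133-positive than in CD133-negative cells, whereas ALDH1A1 differed by 0.04 in the ALDH sort. PROM1 thus checked the labels of the CD133 sort, while ALDH1A1 did not check those of the ALDH sort. Other aldehyde dehydrogenase genes were not used as a check. In ALDH-positive cells PROM1 was 2.42-fold below its ALDH-negative level. Of 8 macrophage markers 4 were below the floor on all arrays, PTPRC and CD163 among them, and 3 were above it on all arrays (CD68, CD14 and LYZ). Their mean log2 level was 4.87 in CD133-positive against 5.02 in CD133-negative cells, and 5.25 in ALDH-positive against 4.89 in ALDH-negative cells, with LYZ 2.51-fold higher in ALDH-positive cells. Of 4 measured erythroid markers HBB and SLC4A1 were below the floor on all arrays and EPOR and KLF1 above it. The part of these markers in the differences below was not tested.

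The ferroxidase genes HEPH and CP differed most among the 10 as deposited. HEPH was higher in CD133-positive cells and lower in ALDH-positive cells, while CP was lower in the positive fraction of both sorts. HEPH lay below the floor in CD133-negative and ALDH-positive cells, so its sizes are uncertain. The other 8 genes differed by 0.52 or less in either sort. In the CD133 sort 4 of the 10 were higher and 6 lower, with a median of -0.12 beside -0.01 over all genes, 50.9% of which were lower. In the ALDH sort 3 were higher and 7 lower, with a median of -0.21 beside 0.03 over all genes, 46.1% of which were lower. Above the floor, a restriction chosen after seeing the data, the CD133 median was -0.06 over 9 members and -0.04 over all genes. There 55.6% of the members and 57.1% of all genes were lower. The ALDH medians above the floor were -0.23 and -0.01, with 77.8% and 51.5% lower. Among the 10, SLC11A2 in the CD133 sort and HFE in the ALDH sort turned sign under other scalings. A bulk measurement of sorted cells cannot tell fewer cells expressing a gene from less RNA in each.

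**Figure D1:**
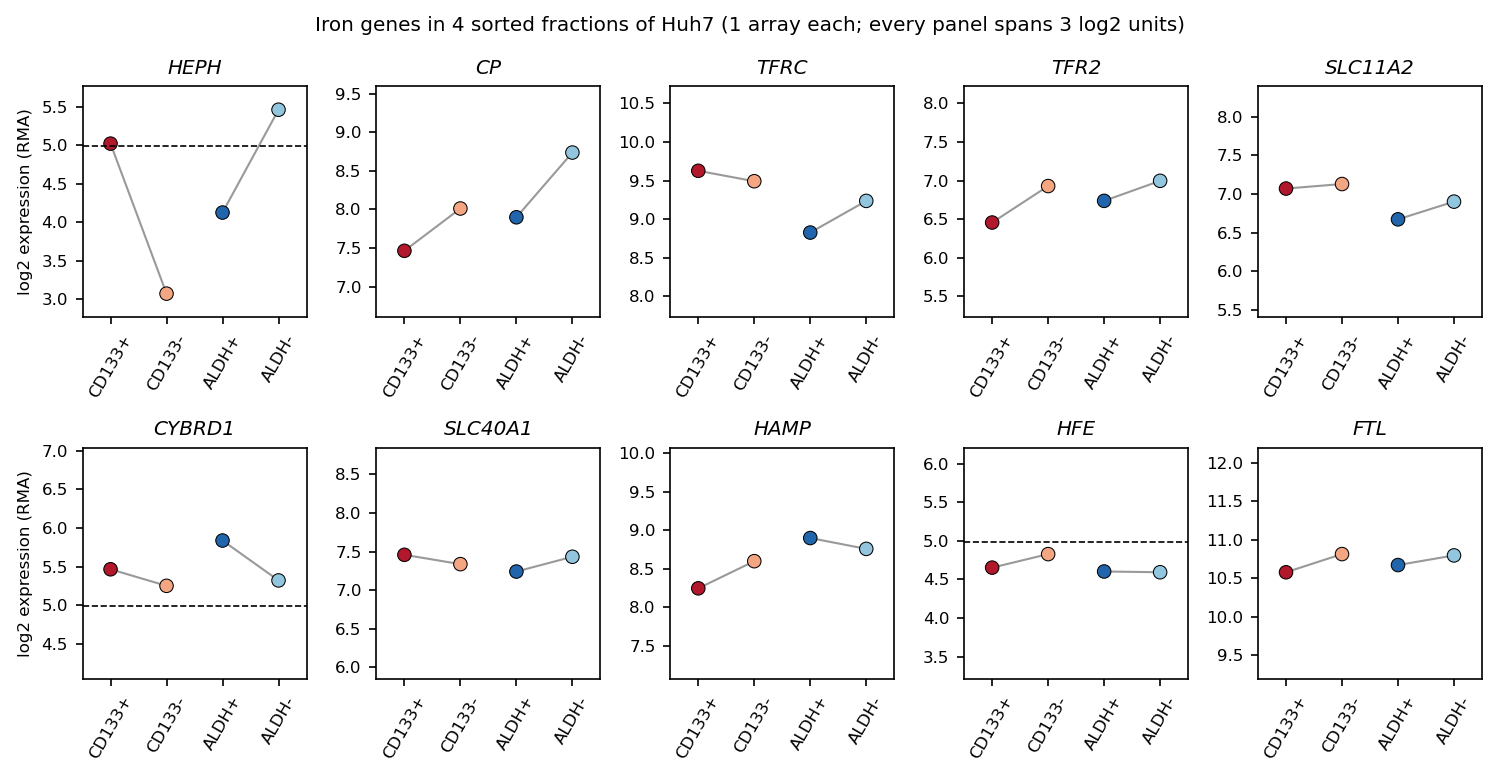
Log2 expression (vertical axis, RMA) of each of the 10 iron genes in the 4 sorted fractions (horizontal axis), 1 point per array, with a grey line joining the fractions of a sort and a dashed line at the floor of 4.98 where it falls in the panel. Every panel spans the same number of log2 units, so steps can be compared between panels: HEPH and CP have the steepest lines, and FTL, HFE and SLC40A1 stay nearly level.

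At 2-fold, with the brighter array of the sort at or above the floor, 1 of the 10 was higher in CD133-positive cells, where 0.716% of 11591 genes were, and 0 were lower, where 0.164% were. In the ALDH sort 0 were 2-fold higher in ALDH-positive cells, where 0.278% of 11879 genes were, and 1 was lower, where 1.3% were. HEPH was the gene counted in both cases. It reached the floor in each sort only through the fraction in which it was higher. At 1.5-fold the CD133 sort gave 1 higher and 0 lower, where 2.74% and 1.89% of genes were, and the ALDH sort gave 0 higher and 2 lower, where 4.15% and 6.6% were. The second gene lower in ALDH-positive cells was CP.

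Hephaestin is the membrane-bound ferroxidase that works beside ferroportin on the basal side of the enterocyte. HEPH stood at 5.02 in CD133-positive against 3.07 in CD133-negative cells, and at 4.13 in ALDH-positive against 5.46 in ALDH-negative cells. The ALDH-negative and CD133-positive arrays were thus the high ones and lay close above the floor, and the other pair lay below it. As deposited, the CD133 difference was 1.95 and the ALDH difference -1.33. One array of each sort was too dim, so these sizes are uncertain. With the dim array set to the floor, the HEPH fold was 1.02 in favour of CD133-positive cells and 1.39 in favour of ALDH-negative cells. The floor is a median of values and not a detection limit, so these folds are not firm bounds.

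The profile most like that of HEPH was sought by the Euclidean distance between mean-centred log2 values of the 4 arrays among 12176 genes, and the nearest 3 genes are given. COL14A1, a fibril-associated collagen, lay at a distance of 0.15, with 6.95 in CD133-positive against 4.81 in CD133-negative cells and 6.02 in ALDH-positive against 7.34 in ALDH-negative cells. DPP4, a peptidase of the intestinal brush border, followed at 0.18, with 8.89 in CD133-positive against 6.88 in CD133-negative cells and 7.76 in ALDH-positive against 9.25 in ALDH-negative cells. LIPH, a phospholipase, came next at 0.19, with 4.59 in CD133-positive against 2.82 in CD133-negative cells and 3.91 in ALDH-positive against 5.27 in ALDH-negative cells. LIPH was below the floor on all arrays but the ALDH-negative one, and COL14A1 was below it in CD133-negative cells. HEPH itself was below the floor in CD133-negative and ALDH-positive cells, and the distances took those dim values as deposited. The likeness is therefore uncertain, rests on 4 arrays and describes them alone.

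Most markers of the enterocyte, the cell in which HEPH is best known, differed in the same directions as HEPH. All 10 of the list were higher in CD133-positive cells, 4 of them 2-fold, where 0.716% of genes above the floor were. Of these 4, LCT reached the floor only through CD133-positive cells (6.23 against 4.44). DPP4, also among the 4, had been picked above for its likeness to HEPH. In ALDH-positive cells 8 of 10 were lower, ALPI by only 0.01, and 4 of them, DPP4 again included, 2-fold, where 1.3% of genes above the floor were. The list was made with earlier results of these data known, so these counts only describe the arrays. Their mean log2 level was 7.26 in CD133-positive against 6.16 in CD133-negative cells, and 6.71 in ALDH-positive against 7.56 in ALDH-negative cells. FABP2, the intestinal fatty acid binding protein, was below the floor on all 4 arrays. The part of these markers in the HEPH difference was not tested. CDX2, an intestinal transcription factor reported to regulate HEPH in intestinal cells, stood at 8.53 in CD133-positive against 7.63 in CD133-negative cells, and at 7.90 in ALDH-positive against 8.58 in ALDH-negative cells. CDX1, the other CDX factor of the list, stood at 6.53 in CD133-positive against 6.18 in CD133-negative cells, and at 6.67 in ALDH-positive against 6.26 in ALDH-negative cells, so in the ALDH sort it went the other way.

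**Figure D2:**
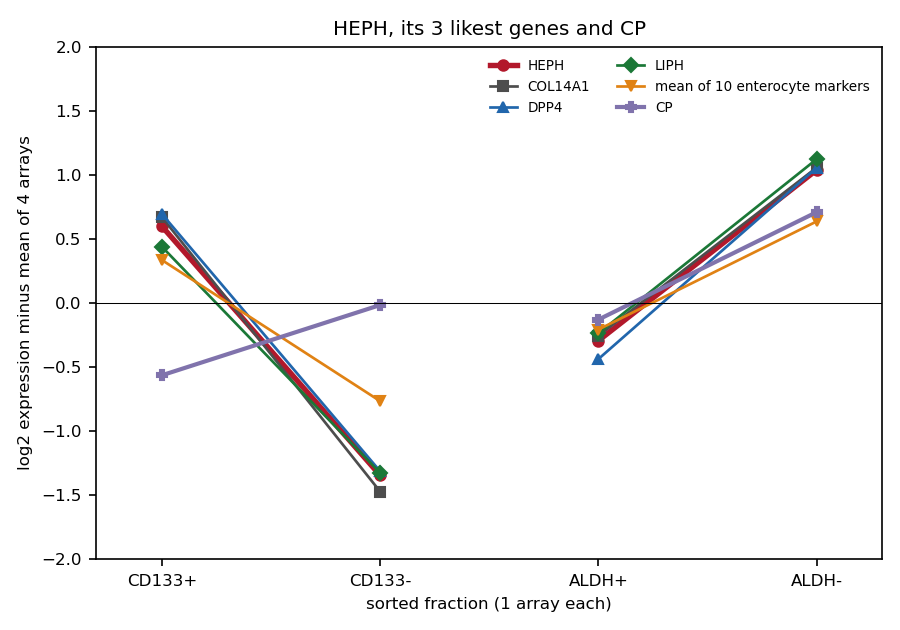
Log2 expression minus each profile's own mean over the 4 arrays (vertical axis) in the 4 sorted fractions (horizontal axis), for HEPH, the 3 genes most like it, the mean of 10 enterocyte markers and CP. HEPH and its likest genes, picked for that likeness, are highest in ALDH-negative and lowest in CD133-negative cells. The HEPH values in CD133-negative and ALDH-positive cells lie below the floor. CP is also highest in ALDH-negative cells but lowest in CD133-positive cells.

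The sequence before the outermost of the 3 HEPH start sites in RefSeq is shown because HEPH alone of the 10 was counted at 2-fold, a count that rests on dim arrays, and CDX2 differed in the same directions. It covers chrX:66162421-66162670 on the plus strand of GRCh38.p14, 250 bases up to the start, and capitals mark the match to TTTAT, the core that CDX factors bind, here on the opposite strand.
HEPH: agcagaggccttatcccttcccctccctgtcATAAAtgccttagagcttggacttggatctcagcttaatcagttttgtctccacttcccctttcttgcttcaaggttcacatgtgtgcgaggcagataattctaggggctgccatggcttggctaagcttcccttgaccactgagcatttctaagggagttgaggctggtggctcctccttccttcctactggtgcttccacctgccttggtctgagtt
This core, searched on both strands, was also found once before the innermost HEPH start and not before the middle one. Among the other members the same core was found before starts of TFRC, HAMP, SLC11A2, CYBRD1 and FTL. Those of TFRC, HAMP, CYBRD1 and FTL read ATAAA and lay close to the start, between bases -32 and -25. The core is not marked in the HAMP sequence shown further below. It occurs in 32.7% of 35116 promoters of the same length, so a match is a description and not a site.

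Ceruloplasmin is the main ferroxidase of plasma and is made by hepatocytes. CP stood at 7.46 in CD133-positive against 8.01 in CD133-negative cells, and at 7.90 in ALDH-positive against 8.74 in ALDH-negative cells. It was well above the floor on all 4 arrays, lowest in CD133-positive and highest in ALDH-negative cells. The CD133 difference was -0.55, a 1.46-fold lower value, and the ALDH difference was -0.84, a 1.79-fold lower value. Among genes above the floor, 5.73% (CD133) and 3.24% (ALDH) differed at least as far from 0, so differences of this size were not rare on these arrays. No promoter of CP is shown.

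Copper has to be loaded into both ferroxidases, so the genes that supply it were also read. Of 10 genes of copper supply, 3 were higher and 7 lower in CD133-positive cells (median -0.15), and 4 were higher and 6 lower in ALDH-positive cells (median -0.06). Over all genes 50.9% (CD133) and 46.1% (ALDH) were lower. None of the copper genes reached 1.5-fold in either sort. Of all genes above the floor, 2.74% were that much higher and 1.89% lower in the CD133 sort. In the ALDH sort these shares were 4.15% and 6.6%. With 8 copper genes above the floor, a count of 0 says little. ATP7B, the liver copper pump that delivers copper to ceruloplasmin, differed by -0.17 and -0.06 in the CD133 and ALDH sorts. The metallothionein MT2A (-0.50) and the copper regulator COMMD1 (-0.23) differed most among those above the floor in the CD133 sort, and COMMD1 (0.33) and the copper carrier SLC31A2 (-0.30) in the ALDH sort. MT2A has close paralogs that can share probe signal. HEPHL1, a further ferroxidase of the family, was below the floor on all 4 arrays.

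Among the genes of uptake, TFRC, whose product carries transferrin-bound iron into the cell, differed more within the ALDH sort than within the CD133 sort. TFRC stood at 9.63 in CD133-positive against 9.49 in CD133-negative cells, and at 8.83 in ALDH-positive against 9.24 in ALDH-negative cells. Both arrays of the CD133 sort were above both arrays of the ALDH sort, a step between the sorts larger than that within the CD133 sort. The range over all 4 arrays was 0.80, wider than the difference within either sort. The CD133 difference was 0.14 and the ALDH difference -0.41, and 58.3% and 24.1% of genes above the floor differed at least as far from 0.

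TFR2, the liver receptor that senses transferrin rather than supplying iron, stood at 6.46 in CD133-positive against 6.93 in CD133-negative cells, and at 6.74 in ALDH-positive against 7.00 in ALDH-negative cells. It was lower in the positive fraction of both sorts, by 0.47 and 0.26 on the log2 scale. In the CD133 sort 8.64% of genes above the floor differed at least as far from 0, and in the ALDH sort 44.8% did.

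SLC11A2, the carrier of ferrous iron in the gut wall and out of endosomes, stood at 7.07 in CD133-positive against 7.13 in CD133-negative cells, and at 6.67 in ALDH-positive against 6.90 in ALDH-negative cells. Its difference in the CD133 sort was -0.06, and this sign turned after a second quantile normalization (0.00) and after loess (0.01), so no direction is given. In the ALDH sort it differed by -0.23. CYBRD1, the duodenal ferric reductase, was the only one of the 10 that was higher in the positive fraction of both sorts. It stood at 5.47 in CD133-positive against 5.25 in CD133-negative cells, and at 5.84 in ALDH-positive against 5.32 in ALDH-negative cells, all close above the floor. The differences of 0.21 and 0.52 had 39.2% and 14.3% of genes at least as far from 0. CYBRD1 thus did not follow HEPH, although both are best known from the enterocyte.

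In the wider uptake list of 12 genes 6 were higher and 6 lower in each sort, with medians of 0.04 (CD133) and -0.01 (ALDH). None reached 1.5-fold. Of all genes above the floor, 2.74% were that much higher and 1.89% lower in the CD133 sort. In the ALDH sort these shares were 4.15% and 6.6%. With 9 uptake genes above the floor, a count of 0 says little. TF, the gene of transferrin, stood at 11.12 in CD133-positive against 11.51 in CD133-negative cells, and at 11.11 in ALDH-positive against 10.97 in ALDH-negative cells. The metalloreductases STEAP1 (-0.49) and STEAP2 (-0.39) differed most in the CD133 sort among those above the floor. STEAP2 (-0.27) and the lipocalin receptor SLC22A17 (0.22) did so in the ALDH sort.

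**Figure D3:**
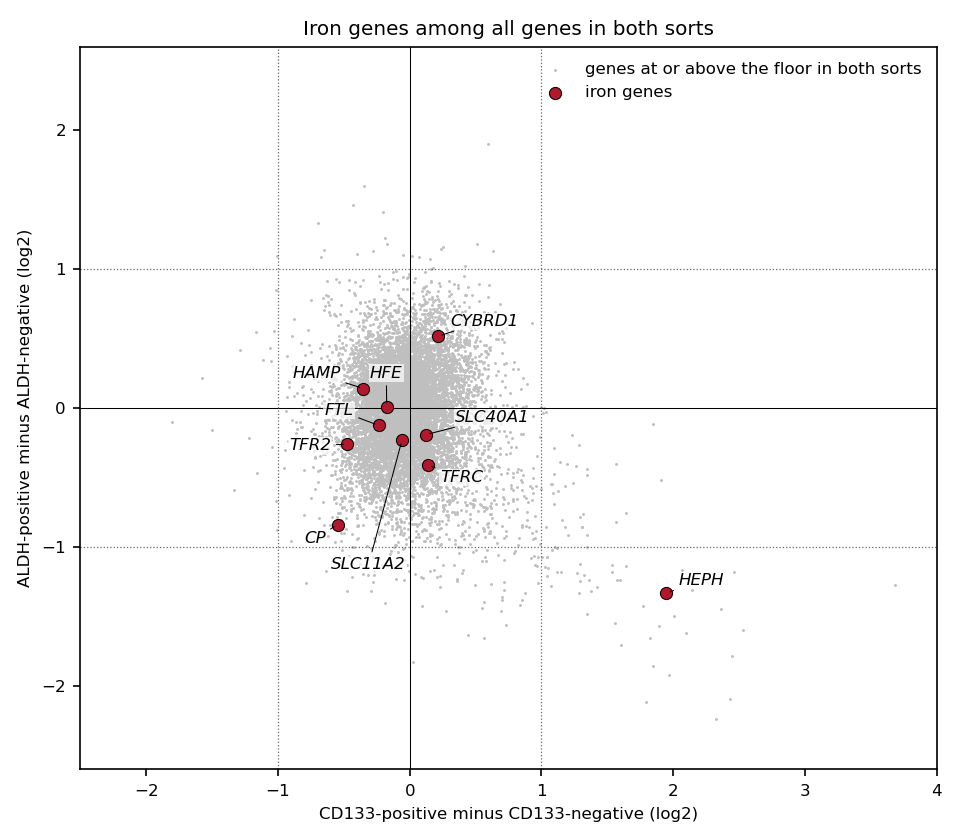
Difference of CD133-positive minus CD133-negative (horizontal axis) against ALDH-positive minus ALDH-negative cells (vertical axis), both in log2 units, for the 10 iron genes in red and for all genes at or above the floor in both sorts in grey. Dotted lines mark 2-fold; HEPH lies at 1.95 and -1.33, CP at -0.55 and -0.84, and the other 8 genes, with HFE below the floor, nearer to 0.

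The transcript of the exporter was nearly level across the fractions, and that of the hormone limiting it differed by 0.35 or less within a sort. Iron export itself was not measured. SLC40A1, the gene of ferroportin, stood at 7.46 in CD133-positive against 7.34 in CD133-negative cells, and at 7.24 in ALDH-positive against 7.43 in ALDH-negative cells. Its whole range over 4 arrays was 0.22, the smallest of the 10 genes. The differences of 0.12 and -0.19 were exceeded or matched in size by 62.4% and 57.2% of genes above the floor.

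HAMP, the gene of hepcidin, stood at 8.25 in CD133-positive against 8.60 in CD133-negative cells, and at 8.90 in ALDH-positive against 8.76 in ALDH-negative cells. It was lowest in CD133-positive and highest in ALDH-positive cells, and so differed in the direction opposite to HEPH in both sorts. The differences were -0.35 and 0.14, and 18.0% and 67.7% of genes above the floor differed at least as far from 0. HFE, a partner in the sensing of transferrin, stood at 4.65 in CD133-positive against 4.83 in CD133-negative cells, and at 4.60 in ALDH-positive against 4.59 in ALDH-negative cells. All 4 HFE values were below the floor, so its differences of -0.18 and 0.01 give no direction, and the value in the ALDH sort turned sign under all 3 other scalings.

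The HAMP promoter is shown because the regulators read through it were measured on the same arrays. It covers chr19:35282278-35282527 on the plus strand of GRCh38.p14, 250 bases up to the RefSeq start, and capitals mark GGCGCC, the core of the BMP-responsive element, and a match to TTCNNNGAA, the letters bound by STAT factors.
HAMP: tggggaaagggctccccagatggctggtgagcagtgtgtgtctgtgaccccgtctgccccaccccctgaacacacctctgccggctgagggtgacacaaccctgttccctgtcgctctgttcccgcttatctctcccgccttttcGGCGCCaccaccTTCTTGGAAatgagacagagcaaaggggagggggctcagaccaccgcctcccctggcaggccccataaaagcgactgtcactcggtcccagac
Both patterns are palindromic, so either strand gives the same matches, and the matches do not overlap here. The first is found in 16.4% and the second in 6.57% of promoters of this length.

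Genes of the BMP and hepcidin pathway went both ways. Of 18 measured genes 9 were higher and 9 lower in CD133-positive cells (median 0.00), and 6 were higher and 12 lower in ALDH-positive cells (median -0.14). None of the 15 above the floor reached 1.5-fold. Of all genes above the floor, 2.74% were that much higher and 1.89% lower in the CD133 sort. In the ALDH sort these shares were 4.15% and 6.6%, so a count of 0 among 15 says little. ID1, a direct target of BMP signalling, stood at 8.80 in CD133-positive against 8.56 in CD133-negative cells, and at 8.34 in ALDH-positive against 8.75 in ALDH-negative cells, and so went opposite to HAMP in both sorts. NEO1 (0.53), the neogenin that binds hemojuvelin, and TMPRSS6 (-0.48), the liver protease that holds hepcidin down, differed most in the CD133 sort among those above the floor. The BMP receptor BMPR2 (-0.52) and NEO1 (-0.46) did so in the ALDH sort. The hemojuvelin gene HJV (0.60 in the CD133 sort, 0.70 between ALDH fractions) and ATOH8 (0.94 between ALDH fractions) had larger values but lay below the floor. STAT3, which carries the inflammatory signal to HAMP, differed by 0.24 and -0.27.

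FTL, the light chain of ferritin, stood at 10.58 in CD133-positive against 10.81 in CD133-negative cells, and at 10.67 in ALDH-positive against 10.80 in ALDH-negative cells. It was slightly lower in the positive fraction of both sorts, with differences of -0.24 and -0.12 that 35.0% and 71.0% of genes above the floor matched in size. FTL has processed pseudogenes that can share probe signal, so its values are uncertain. Its messenger carries an iron-responsive element, a hairpin through which iron regulatory proteins block translation, and a transcript level does not show that step. The element was found by its canonical letters, a bulged C and the loop CAGTGN after it, on the transcript strand, and 1.67% of 35116 RefSeq starts have this pattern in their first 50 transcribed bases. The stretch at chr19:48965329-48965358 on the plus strand of GRCh38.p14 is shown with the bulged C and the loop in capitals.
FTL: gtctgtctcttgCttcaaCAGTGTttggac
ACO1, the gene of iron regulatory protein 1, stood at 7.76 in CD133-positive against 8.17 in CD133-negative cells, and at 7.77 in ALDH-positive against 7.60 in ALDH-negative cells. IREB2 and the ferritin heavy chain FTH1 were not analysed here. Of 7 measured genes of ferritin, iron chaperones and sensors, 3 were higher and 4 lower in CD133-positive cells (median -0.04), and 5 were higher and 2 lower in ALDH-positive cells (median 0.18). The ferritin receptor of autophagy NCOA4 (-0.16) came after ACO1 in the CD133 sort among genes above the floor. The iron chaperone PCBP1 (0.59) and the iron-sensing ligase subunit FBXL5 (-0.34) differed most in the ALDH sort, with the same limit.

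Of the 3 iron genes outside the 10 that reached 2-fold, HP did so in the CD133 sort and ABCG2 and SLC7A11 in the ALDH sort. All were lower in the positive fraction, where 0.164% and 1.3% of genes above the floor were. The lists searched held, above the floor in each sort, 9 genes of uptake, 5 of ferritin and sensors and 15 of BMP control. They also held 13 of haem handling, 8 of haem synthesis, 17 of mitochondrial iron, 8 of copper supply and 11 of ferroptosis. With so few genes at 2-fold, no result about the lists is drawn. In haem handling, HP, whose product clears haemoglobin, was at 6.82 in CD133-positive against 8.63 in CD133-negative cells, a difference of -1.80. In the ALDH sort HP differed by only -0.10, and its close paralog can share the signal. ABCG2, a drug efflux pump that also exports porphyrins, was at 5.61 in ALDH-positive against 6.87 in ALDH-negative cells, a difference of -1.26, and in the CD133 sort it went the other way at 0.97, just short of 2-fold. In the ferroptosis list the cystine carrier SLC7A11 was at 6.64 in ALDH-positive against 7.87 in ALDH-negative cells. It differed by -1.23 in the ALDH sort and by only -0.10 in the CD133 sort. The acyl-CoA synthetase ACSL4 (-0.67) and the polyamine acetyltransferase SAT1 (0.39) differed most of that list in the CD133 sort among genes above the floor.

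As groups, with genes below the floor included, these lists had medians between -0.25 and 0.18, beside -0.01 (CD133) and 0.03 (ALDH) over all genes. The 13 genes of haem handling had a CD133 median of 0.05, with 9 higher and 4 lower, and an ALDH median of -0.10, with 5 higher and 8 lower. The 14 ferroptosis genes had medians of 0.06, with 9 higher and 5 lower, and -0.25, with 6 higher and 8 lower. Above the floor their ALDH median was -0.41, with 3 higher and 8 lower. All genes above the floor had an ALDH median of -0.01, with 51.5% lower. The 9 haem synthesis genes had medians of 0.02, with 5 higher and 4 lower, and 0.18, with 6 higher and 3 lower. In that list, among genes above the floor, CPOX (-0.53) and ALAD (-0.29) differed most in the CD133 sort and UROD (0.41) and CPOX (0.35) in the ALDH sort, all enzymes of the porphyrin pathway. The 18 genes of mitochondrial iron and iron-sulfur clusters had medians of -0.15, with 4 higher and 14 lower, and -0.02, with 8 higher and 10 lower. The iron carrier SLC25A28 (-0.48) and CISD2 (-0.33) differed most there in the CD133 sort among genes above the floor, and the glutaredoxin GLRX5 (0.54) and CISD1 (-0.48) in the ALDH sort.

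**Figure D4:**
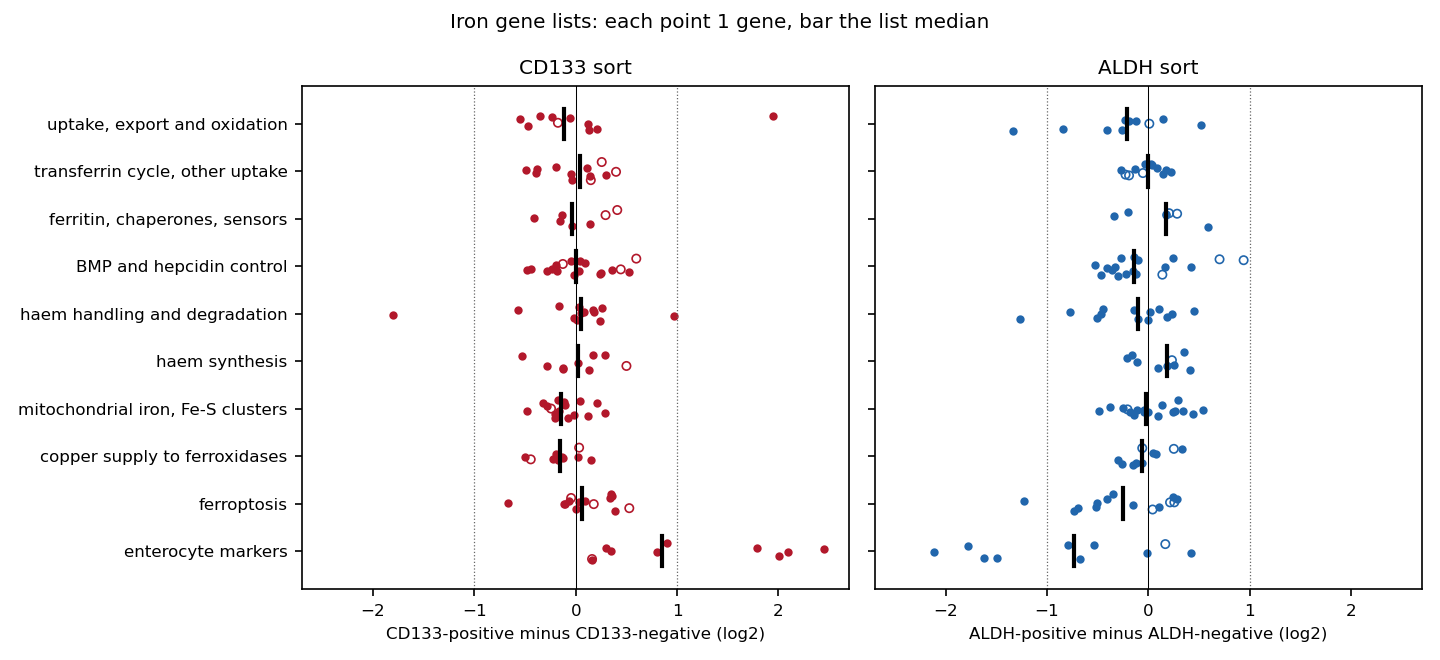
Log2 differences of the positive minus the negative fraction (horizontal axis) in the CD133 sort on the left and the ALDH sort on the right, 1 point per gene, by list (vertical axis), with filled points at or above the floor and open points below it. Black bars are list medians and dotted lines mark 2-fold; the iron lists have medians between -0.25 and 0.18, while the enterocyte markers have medians of 0.85 and -0.74.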

How the data were processed

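The authors deposited log2 expression values from RMA, per the submitters' processing notes, and their range of 0.556 to 13.5 fits that scale. Software version and genome build are not given in the sources used here. RMA gives all arrays nearly one distribution, which hides any shift common to most genes and shrinks differences of dim probes. Median log2 values per array ran from 4.92 to 5.04, and array pairs correlated at 0.982 to 0.989.

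Of 28869 probes, 19310 had exactly 1 symbol in the platform annotation, and 19279 of these matched RefSeq by gene identifier. A gene took the probe with the highest mean. No test was run, since there is 1 array per group. The members, gene lists and naming rule were chosen with earlier results of these data known. Named were all 10 members, the 3 genes likest to a member at 2-fold and, per other list and sort, genes at 2-fold or else the 2 largest differences above the floor. TF, ATP7B, ID1, STAT3, CDX1, CDX2, HJV, ATOH8, HEPHL1 and other cell markers were chosen after their values were seen. Promoters came from RefSeq (GRCh38.p14), where 8 of the 10 members matched. Alternatives were other floors and thresholds, probe means, centring, a second quantile normalization and loess with a span of 0.4. Counting and scaling were tested on simulated data. Changes were put only into genes well above the floor and no floor was applied, so the simulation does not cover dim genes such as HEPH. Python 3.11.15, pandas 2.3.3, statsmodels 0.14.6 and matplotlib 3.10.9 were used.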

Additional observations from a re-analysis of the deposited data

Results flagged for a closer look

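As deposited, HEPH, TFRC, HAMP, SLC40A1 and HFE had opposite signs in the CD133 and ALDH sorts. With 1 array per fraction this opposition was not tested. HEPH differed by 1.95 (CD133) and -1.33 (ALDH) and was alone among them at 2-fold, through arrays below the floor in each sort. TFRC differed by 0.14 and -0.41, HAMP by -0.35 and 0.14, and SLC40A1 by 0.12 and -0.19. HFE differed by -0.18 and 0.01, but all its values lay below the floor and the ALDH value was negative under all 3 other scalings, so HFE gives no direction.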

How the results depend on the processing

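The HEPH counts rest on how dim arrays are treated. With the floor moved up to the 75th percentile, 0 genes were 2-fold higher in CD133-positive cells and 0 were 2-fold lower in ALDH-positive cells, against 1 and 1. When dim values were set to the floor, both counts were again 0, with HEPH at 0.03 and -0.47. At 1.5-fold, 2 genes were lower in ALDH-positive cells. Without a floor, after centring, after a second quantile normalization and after loess, the counts at 2-fold were as given. Each gene has 1 probe, so the settings on probes could change nothing. The medians over the 10 genes stayed below 0 under the scalings and with dim values at the floor, where the CD133 median was only -0.03. They were -0.18 and -0.19 without HEPH and -0.06 and -0.23 over the 9 above the floor, both chosen after seeing the data. Over all genes above the floor the medians were -0.04 (CD133) and -0.01 (ALDH). Under the 3 scalings no gene's difference shifted by more than 0.12. Of 80 recomputed gene differences 5 turned sign: HFE in the ALDH sort (-0.02 after centring, -0.07 after quantile normalization, -0.11 after loess) and SLC11A2 in the CD133 sort (0.00 and 0.01). No paired analysis was possible because each group has 1 array. Precision is limited by the 4 arrays.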
